A study of Rattus norvegicus with 35 samples.

Results

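Potassium channel genes were followed in the olfactory epithelium of newborn, adult and old rats. The genes were chosen by name alone, as every non-control probe of the array whose gene name begins with Kcn. This gave 106 probes for 86 gene names, of 41012 probes with 35561 names in all. The level of a probe is given here as log2 of its background-subtracted signal over the median signal of the non-control probes of the same array, so that 0 is the level of the median probe. Levels of different probes were not ranked against each other, because each probe binds its target with its own strength. The sums of marker levels below do add different probes. In each sum the brightest marker weighs most, so that a sum is not the amount of a cell type.

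Potassium channels set the resting potential of a cell, end action potentials and control how often a neuron fires. The voltage-gated channels (Kcna, Kcnb, Kcnc, Kcnd, Kcnh and Kcnq) are built from pore subunits around 1 pore, and the silent subunits (Kcnf, Kcng, Kcns and Kcnv) make no channel alone but alter those of the Kcnb type. Inward rectifiers (Kcnj) and two-pore-domain channels (Kcnk) carry current near rest, while the Kcnma, Kcnn and Kcnt channels open with calcium or sodium, and accessory proteins (Kcnab, Kcne, Kcnip, Kcnmb and Kcnrg) bind to pore subunits. The olfactory epithelium holds sensory neurons that are renewed throughout life from basal cells, next to sustentacular cells that support them, so that young and mature neurons lie side by side.

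All animals were Brown Norway rats. The newborn group had 19 pups aged 3 to 5 days, of unknown sex, from 4 litters bought with their mothers: L1 with 4 pups, and L2, L3 and L4 with 5 each. The adult group had 4 males of 9 weeks and the old group 4 males of 22 months that had lived in the animal house. Each pup gave 1 array, with RNA from a single side of the nose, and each adult or old rat gave 2, from the left and right epithelia, whose levels were averaged so that the rat was the replicate. The old and adult rats were males while the sex of the pups was not given, so that age and sex cannot be told apart.

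The 35 arrays had a median signal of 42.1 to 87.7 in the pups, 81.6 to 162 in the adults and 37.1 to 55.3 in the old rats. Of the 106 Kcn probes, 54 to 76 were above background on an array of a pup (median 69), 57 to 74 on an adult array (median 63) and 61 to 71 on an old one (median 61.5). The arrays were scanned on 5 days and lay on 10 slides. The adult arrays were alone on scan days 1 and 2 and were read with an earlier release of the scanner software, so that for the adult group scan day, software and age cannot be told apart. L1 shared scan day 3 with the old rats, while L2, L3 and L4 were scanned on days 4 and 5. L1 against the old rats was therefore the one age comparison that was also made within 1 scan day. How precisely any difference is known is limited by how few arrays there are.

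Markers of the tissue were present on the arrays. Of 14 markers of mature olfactory sensory neurons 11 were on the array by name (Ano2, Gng13 and Slc8a4 were not matched), and 10 were expressed in all groups. All 10 were lower in newborn than in adult and in old rats, where 26.7% and 31.5% of all probes expressed in all groups were lower. Among them was Omp, the olfactory marker protein, with mean levels of 5.16, 7.57 and 8.26. The summed level of the 11 (linear, in multiples of the array median) was 261 to 543 in the pups, 1379 to 1861 in the adults and 2059 to 2834 in the old rats. Stoml3 was the brightest of them. Markers of immature neurons went the other way: of 9, with 8 tested, 7 were higher in newborn than in adult and 8 higher than in old rats. Of all such probes 39.7% and 28.4% were higher. The sums of the immature markers, of which Stmn1 was the brightest, were 2494 to 4647, 1453 to 1893 and 1330 to 1671. In tissue made of several cell types, fewer cells of a type and less RNA per cell cannot be told apart. The part of these neuron markers in the Kcn results was not tested.

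A slightly smaller share of Kcn probes than of all probes was expressed at all ages. Expressed means above background on at least 3 arrays of a litter or on at least 6 of the 8 arrays of the adult or old group, and 55 of the 106 Kcn probes (51.9%), for 50 genes, were expressed in all 4 litters, adult and old rats, against 57.7% of all probes. These 55 are called the common set below. On all 35 arrays 47 Kcn probes were above background, and 11 were above background on none (10.4%, against 16.7% of all probes). By group, the Kcn probes expressed numbered 69, 59, 69 and 70 in the litters L1 to L4, 59 in the adults and 60 in the old rats.

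The subfamilies differed in how many of their members were expressed. Of the 36 probes for voltage-gated pore subunits 15 were in the common set, as were 7 of 13 for silent subunits, 11 of 19 for inward rectifiers, 9 of 11 for two-pore-domain channels, 3 of 9 for channels opened by calcium or sodium, and 10 of 18 for accessory proteins. Two-pore-domain channels were thus the most completely expressed group, and Kcnk3 was the one member of it that no array measured. Among the voltage-gated families, the common set held 4 of 10 Kcna, 2 of 5 Kcnc, 2 of 4 Kcnd, 4 of 8 Kcnh and 2 of 7 Kcnq probes. Kcng was represented by 5 of 7 probes, Kcns by 2 of 3, Kcnmb by 3 of 5, and Kcnn by 2 of 4. The sodium-activated Kcnt channels, with 3 probes, and the silent Kcnf and Kcnv subunits, with 1 and 2, had none in it. Kcna7, Kcnh5, Kcnk3, Kcne4 and Kcnv2 were the 5 genes without a probe above background on any array.

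Kcn levels differed between newborn and adult rats in both directions, and between newborn and old rats mostly downward. Of the 55 probes, 18 had more signal in newborn than in adult rats and 18 had less, at a limma adjusted p under 0.01. Over all 23668 probes of the common set 39.7% were higher and 26.7% lower. With a fold of at least 2 besides, 8 Kcn probes were higher and 10 lower, against 13.9% and 9.05% of all probes. Against old rats 11 Kcn probes were higher and 29 lower in newborn rats, where 28.4% and 31.5% of all probes were called, and with a fold of at least 2 these were 7 and 20, against 9.55% and 8.86%. The lower share among Kcn probes against old rats thus lay above the background, and no test was made of that difference. The same shares of all probes are the background for the counts of subfamilies and marker lists below, none of which was tested against them. Here and below pups were the replicates and litters were fixed groups. Each SE and p of a newborn comparison thus covers the spread within litters and not that between them. With litter means as replicates limma called 15 Kcn probes higher and 17 lower than in adults, against 7995 and 5160 of all 23668 probes. From old rats these were 11 and 26, against 4955 and 6063.

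The median change of all tested probes, newborn minus adult, was 0.15, newborn minus old -0.03 and adult minus old -0.18, on the log2 scale. The median of the Kcn probes was -0.05, -0.59 and -0.36. Since these shifts depend on the scaling, many of the changes from adult rats are also given relative to the median probe. All 36 calls between newborn and adult rats and all 40 between newborn and old rats kept their direction when the arrays were scaled by the 75th percentile or by quantiles, with or without another background correction, or taken from the matrix of the authors. Within scan day 3, where L1 alone was set against the old rats, the 11 higher probes were all higher, 9 of them past the threshold, and the 29 lower probes were all lower, 22 of them past it. The same L1 pups and old rats were part of the fit that called these probes, so that the shared direction is partly built in.

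**Figure D1:**
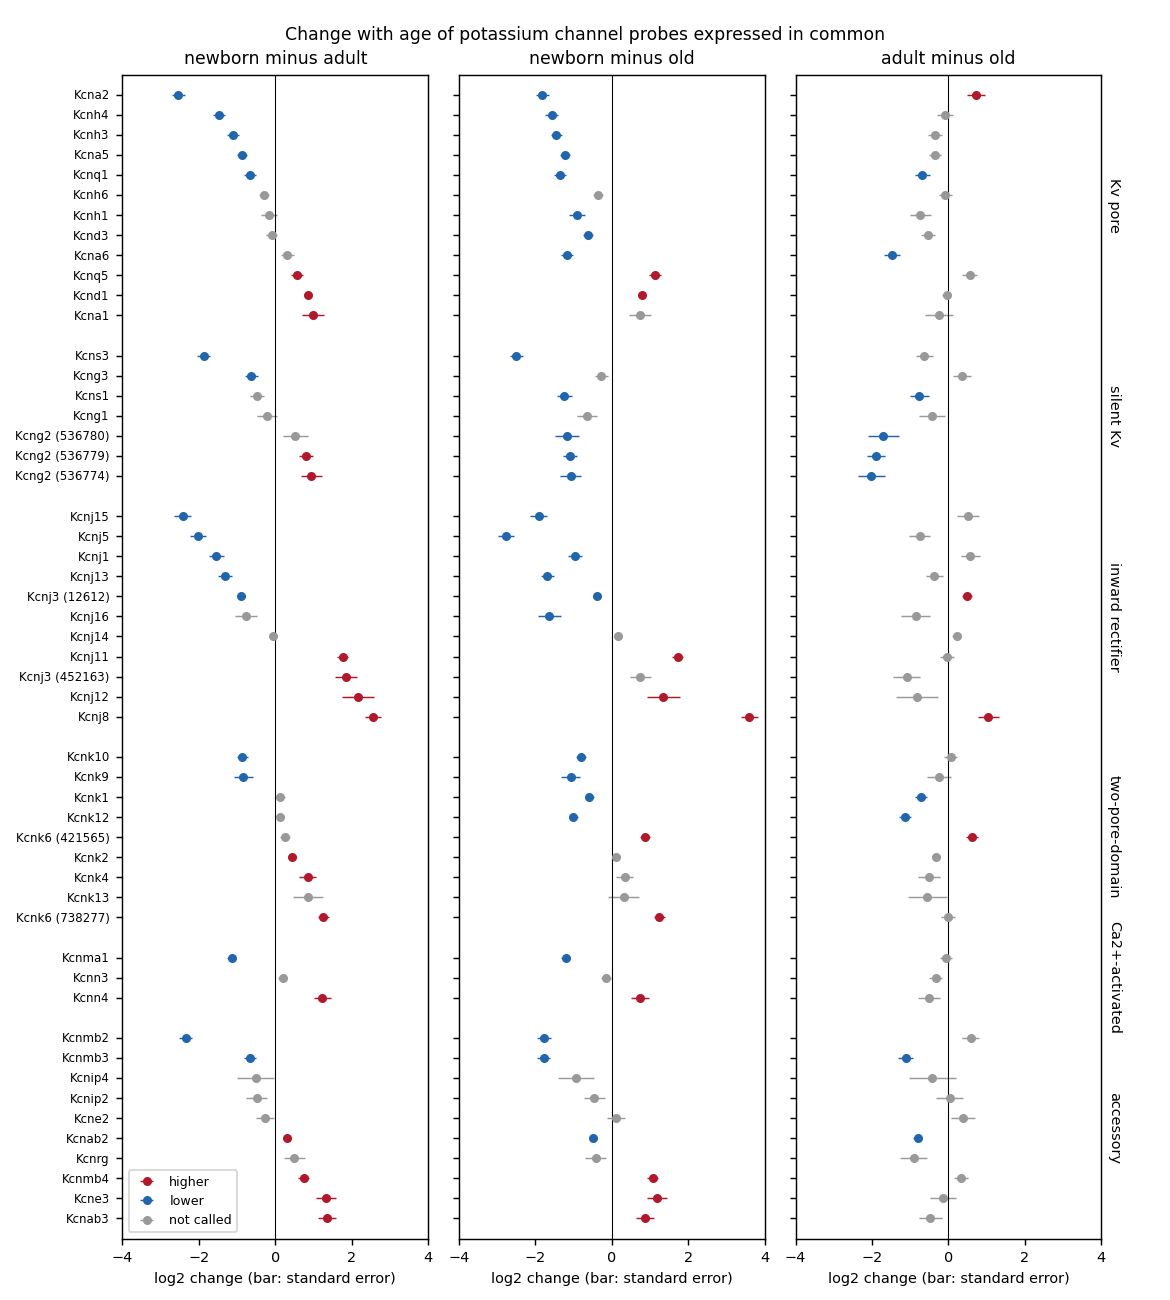
Log2 change of Kcn probes of the common set in newborn minus adult, newborn minus old and adult minus old rats (horizontal axis), grouped by role, with bars of 1 SE; red marks probes called higher, blue probes called lower and grey probes not called at an adjusted p of 0.01. Against old rats the lowest is Kcnj5, at -2.78, and the highest Kcnj8, at 3.60.

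Of the 15 tested probes for voltage-gated pore subunits, 4 were higher and 6 lower in newborn than in adult rats (39.7% and 26.7% of all probes), and 2 were higher and 10 lower than in old rats (28.4% and 31.5%). The steepest change was that of Kcna2, a delayed rectifier subunit of axons. Its level ran from -1.85 to 0.57 in the pups (median -0.10), was 2.48, 2.05, 2.44 and 2.34 in the adults and 1.61, 1.72, 1.58 and 1.51 in the old rats. All 19 pups lay below all adult and old rats, and all adults lay above all old rats. Newborn minus adult was -2.54 ± 0.18 (SE; -2.69 relative to the median probe; 5.82-fold; adjusted p = 3.55e-12), and newborn minus old was -1.82 ± 0.18 (adjusted p = 2.33e-09). Within scan day 3 the change from old rats was -2.59 (adjusted p = 3.03e-05).

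Kcnh3 and Kcnh4 encode related pore subunits of the ether-a-go-go family that open at voltages near rest. Kcnh4 ran from 1.40 to 2.56 in the pups (median 2.14), and was 3.73, 3.32, 3.77 and 3.39 in adult and 3.57, 3.74, 3.42 and 3.88 in old rats. Every pup was below every older rat, while adult and old rats overlapped. The change was -1.48 ± 0.16 from adult (-1.63 relative to the median probe; adjusted p = 1.31e-08) and -1.58 ± 0.16 from old rats (adjusted p = 6.63e-09). Kcnh3 had pup levels of 4.81 to 5.74 (median 5.38), adult levels of 6.73, 6.33, 6.5 and 6.24, and old levels of 6.74, 6.88, 6.59 and 6.99. The pups were again apart from both older groups, by -1.11 (adjusted p = 3.04e-07) and -1.45 (adjusted p = 4.89e-09).

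Kcna5, a delayed rectifier, fell outside the rule for named genes and was chosen after its values were seen. It was lower in all pups than in all older rats, by -0.87 from adult (adjusted p = 8.6e-07) and -1.23 from old rats (adjusted p = 4.82e-09).

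Kcnq1, which forms slow channels with Kcne proteins in epithelia and heart, had levels of 0.57 to 1.91 in the pups (median 1.29), 1.94, 1.78, 2.05 and 1.89 in the adults and 2.62, 2.59, 2.40 and 2.79 in the old rats. Of the pups 18 lay below all adults and all lay below the old rats. The changes were -0.67 ± 0.15 from adult (-0.82 relative to the median probe; adjusted p = 0.00033) and -1.36 ± 0.15 from old rats (adjusted p = 2.52e-08).

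Kcnd1, an A-type subunit, had more signal in newborn than in both older groups, and the axonal subunit Kcna1 had more than in adults, short of the threshold against old rats. Kcnd1 ran from 1.87 to 2.56 in the pups (median 2.17), and was 1.41, 1.34, 1.32 and 1.29 in adult and 1.37, 1.38, 1.16 and 1.63 in old rats. All pups were above all older rats, by 0.84 ± 0.10 from adult (0.69 relative to the median probe; adjusted p = 2.85e-08) and 0.80 ± 0.10 from old rats (adjusted p = 1.01e-07). Kcnq5, a subunit of the M-type current that damps repeated firing, ran from 3.1 to 5.58 in the pups (median 3.94), and was 3.45, 3.46, 3.44 and 3.62 in adult and 2.83, 3.02, 2.90 and 2.98 in old rats. Of the pups 15 lay above all adults and 2 below them, and all lay above the old rats. Newborn minus old was 1.13 ± 0.15 (adjusted p = 4.19e-07), and newborn minus adult 0.57 ± 0.15 (0.42 relative to the median probe; adjusted p = 0.00146). The latter did not pass with litter means as replicates (adjusted p = 0.0465), the 75th percentile (0.44, adjusted p = 0.0114) or quantile normalization (0.41, adjusted p = 0.0144).

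Kcna1 in the pups was 0.68 to 2.34 (median 1.74), in the adults 0.63, 1.07, -0.12 and 1.07, and in the old rats 1.15, 0.08, 0.90 and 1.5. Pups and older rats overlapped, with 15 pups above all adults. It was higher than in adults by 0.97 ± 0.29 (0.82 relative to the median probe; adjusted p = 0.00404), but newborn minus old was 0.73 and was not called (adjusted p = 0.0282). The call against adults was lost without adult rat 13 (0.96, adjusted p = 0.013) or adult rat 15 (0.72, adjusted p = 0.0448), and with the 75th percentile (adjusted p = 0.0145), litter means as replicates (adjusted p = 0.0123), the methods' t-test (adjusted p = 0.0462), or rat (adjusted p = 0.0115), slide (adjusted p = 0.027) or scan day (adjusted p = 0.0523) as a random block. It was also lost (0.70, adjusted p = 0.0676) in a fit with only the 8 pups whose markers of the olfactory bulb were no higher than in adult and old rats, chosen after seeing the data and called the low-bulb fit below.

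Kcnh1, the ether-a-go-go subunit itself, spanned 3.37 to 5.43 in the pups (median 3.74), with adults at 3.96, 3.98, 4.12 and 4.16 and old rats at 4.82, 4.80, 4.81 and 4.74. Of the pups 18 lay below all old rats and 1 above them. Newborn minus old was -0.90 ± 0.21 (adjusted p = 0.000595), but within scan day 3 it was -0.55 (adjusted p = 0.218), and newborn minus adult was -0.17 (adjusted p = 0.483).

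The silent subunits, which join Kcnb channels and change their gating, were lower in newborn than in old rats in 5 of 7 tested probes (31.5% of all probes), which stand for 3 genes: Kcng2 with 3 probes, Kcns1 and Kcns3. Against adult rats 2 were higher, both of Kcng2, and 2 lower (39.7% and 26.7% of all probes). Kcns3 led this group. Its pups lay between 2.43 and 3.71 (median 3.17), the adults at 5.18, 4.82, 5.15 and 4.92, and the old rats at 5.44, 5.66, 5.55 and 5.94. No pup reached the lowest adult, and no adult the lowest old rat. The change was -1.87 ± 0.17 from adult (-2.03 relative to the median probe; 3.66-fold; adjusted p = 5.12e-10) and -2.50 ± 0.17 from old rats (5.67-fold; adjusted p = 4.81e-12). Kcns1, its close relative, was -0.49 to 1.19 in the pups (median 0.62), 0.82, 0.71, 1.1 and 0.93 in adult and 1.60, 1.77, 1.34 and 1.91 in old rats. The pups overlapped the adults but not the old rats, with -0.48 newborn minus adult (adjusted p = 0.0249) and -1.25 newborn minus old (adjusted p = 3.11e-06). The former passed with the 75th percentile (adjusted p = 0.00364), normexp and quantile normalization (adjusted p = 0.00995), rat as a block (adjusted p = 0.00786) and the methods' t-test (adjusted p = 0.00721).

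Kcng2, a silent subunit with 4 probes, was lowest in the adult. The probe that stands for the gene ran from 0.06 to 3.05 in the pups (median 1.14), and read 0.27, 0.45, -0.02 and 0.03 in adult and 2.20, 2.25, 2.03 and 2.33 in old rats. Of the pups 15 lay above all adults and 17 below all old rats, while 2 pups, both of L1, lay above the old rats. From adults the pups differed by 0.94 ± 0.27 (0.79 relative to the median probe; adjusted p = 0.00336) and from old rats by -1.08 ± 0.27 (adjusted p = 0.00116). The former was lost without adult rat 15 (0.87, adjusted p = 0.016) or adult rat 16 (0.89, adjusted p = 0.0143), with the 75th percentile (adjusted p = 0.0135), with scan day as a block (adjusted p = 0.0133) and in the low-bulb fit (0.34, adjusted p = 0.0124). The latter was -0.24 within scan day 3 (adjusted p = 0.597). A second probe gave 0.81 (adjusted p = 0.000289) and -1.09 (adjusted p = 8.46e-06). Another gave 0.53 (adjusted p = 0.135) and -1.18 (adjusted p = 0.00198), and the last was above background on no array.

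The second of these Kcng2 probes and the one listed after it share bases and so are not independent measurements of the gene. They lie on the minus strand at chr18:77263883-77263942 and chr18:77263923-77263982 of rat build rn3, and their sequences are shown because the shared 20 bases, in capitals, are the end of one and the start of the other.
Kcng2 second probe: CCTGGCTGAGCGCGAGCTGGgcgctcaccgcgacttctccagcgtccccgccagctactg
Kcng2 other probe: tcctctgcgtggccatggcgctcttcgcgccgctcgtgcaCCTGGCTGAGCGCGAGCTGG

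Inward rectifiers held the largest differences from old rats in either direction. Of 11 tested probes, 4 were higher and 5 lower in newborn than in adult rats (39.7% and 26.7% of all probes), and 3 were higher and 6 lower than in old rats (28.4% and 31.5%). Kcnj5, a channel subunit opened by G proteins, ran from 4.69 to 6.79 in the pups (median 5.87), and was 7.65, 7.81, 7.79 and 7.82 in adult and 8.43, 8.62, 8.33 and 8.69 in old rats. The groups did not overlap, and the pups stood well below both. Newborn minus adult was -2.03 ± 0.21 (-2.18 relative to the median probe; 4.07-fold; adjusted p = 5.21e-09) and newborn minus old -2.78 ± 0.21 (6.86-fold; adjusted p = 3.28e-11). Among the lower Kcn probes this was the widest gap from old rats, and within scan day 3 it was -3.18 (adjusted p = 2.39e-07).

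Kcnj13 and Kcnj15 are inward rectifiers best known from epithelia. Kcnj15 ran from -2.08 to 0.86 in the pups (median -1.20), and was 1.27, 1.22, 1.48 and 1.24 in adult and 0.82, 0.93, 0.82 and 0.60 in old rats. All pups were below the adults and 18 were below all old rats. The exception was rat 24 of L2, at 0.86, within the range of the old rats. Its changes were -2.43 ± 0.23 from adult (-2.58 relative to the median probe; adjusted p = 9.5e-10) and -1.92 ± 0.23 from old rats (adjusted p = 7.62e-08). Kcnj13 was 1.70 to 3.34 in the pups (median 2.71), 3.89, 3.88, 4.14 and 4.11 in adult and 4.27, 4.42, 4.41 and 4.41 in old rats. All pups were below both older groups, by -1.32 (adjusted p = 2.45e-07) and -1.69 (adjusted p = 5.85e-09).

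Kcnj1, the potassium secretion channel of kidney tubules, was -0.42 to 1.70 in the pups (median 0.57), 1.63, 1.93, 2.19 and 2.86 in adult and 1.73, 1.65, 1.37 and 1.56 in old rats. Of the pups 18 lay below all adults and 16 below all old rats. The changes were -1.54 ± 0.19 (-1.69 relative to the median probe; adjusted p = 8.05e-08) and -0.97 ± 0.19 (adjusted p = 7.61e-05), the latter short of the threshold with litter means as replicates (adjusted p = 0.0105) and in the low-bulb fit (-0.64, adjusted p = 0.0119). Kcnj16, a partner of Kcnj10 and Kcnj15 in mixed channels, was -1.38 to 1.54 in the pups (median 0.46), 0.87, 0.98, 1.15 and 1.61 in adult and 2.07, 1.92, 1.91 and 2.15 in old rats. All pups lay below the old rats, at -1.64 ± 0.29 (adjusted p = 2.59e-05), and 15 below all adults, at -0.78 (adjusted p = 0.0194). Without rat 24 of L2 the latter was -0.84 and passed the threshold (adjusted p = 0.00681), as it did with the 75th percentile (adjusted p = 0.00793), litter means as replicates (adjusted p = 0.00228), normexp and quantile normalization (adjusted p = 0.00478) and rat as a block (adjusted p = 0.00483). Kcnj10, the rectifier of glia, was above background on 1 array of a pup and on no adult or old array.

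Subunits of channels that close with ATP were higher in the newborn. Kcnj8, a pore subunit of such channels in smooth muscle and pericytes, ran from 2.97 to 4.35 in the pups (median 3.78), was 0.74, 1.48, 0.88 and 1.77 in adult and 0.47, -0.41, 0.39 and 0.27 in old rats. The 3 groups did not overlap. Newborn minus adult was 2.56 ± 0.21 (2.41 relative to the median probe; 5.91-fold; adjusted p = 1.02e-10) and newborn minus old 3.60 ± 0.21 (12.1-fold; adjusted p = 3.65e-13), which was the widest difference of any Kcn probe of the common set. Kcnj11, the pore subunit of these channels in neurons, striated muscle and pancreatic beta cells, ran from 1.87 to 2.81 in the pups (median 2.18), and was 0.60, 0.69, 0.15 and 0.58 in adult and 0.64, 0.33, 0.46 and 0.76 in old rats. Every pup was above every older rat, and adult and old rats overlapped. The changes were 1.76 ± 0.14 (1.61 relative to the median probe; adjusted p = 6.57e-11) and 1.72 ± 0.14 (adjusted p = 1.67e-10).

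The sulfonylurea receptors that complete these channels were also higher in newborn rats, in the fit on all probes. Abcc8, the usual partner of Kcnj11, had mean levels of 0.95, -1.38 and -1.60 in newborn, adult and old rats and was above background on 19, 8 and 5 arrays, with 2.33 newborn minus adult (adjusted p = 1.14e-08). Abcc9, the usual partner of Kcnj8, had means of 0.69 and -1.52 in newborn and adult rats and was above background on 19 and 7 arrays, with 2.21 newborn minus adult (adjusted p = 7.74e-08). It was not well above background on any old array.

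Markers of skeletal muscle and of vessels were read beside Kcnj8 and Kcnj11. Of 13 skeletal muscle markers 11 were matched (Mylpf and Casq1 were not) and 7 tested, of which 7 were higher in newborn than in adult and 4 higher than in old rats. Their summed level was 70.3 to 953 in the pups (median 240), 21.7 to 37.0 in adult and 63.3 to 90.8 in old rats, and the fetal myosin Myh8 was above background on 19, 0 and 0 arrays. Of 10 markers of smooth muscle and endothelium 9 were matched (Acta2 was not) and 6 tested, with 2 higher and 2 lower than in adult and 2 higher and 3 lower than in old rats. Their sum was 67.5 to 146 in the pups, 58.6 to 65.8 in adult and 85.9 to 104 in old rats, and Tek was above background on no array. Their part in the Kcnj8 and Kcnj11 results was not tested.

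Kcnj12, a strong rectifier of muscle and neurons, ran from 0.49 to 3.53 in the pups (median 2.10), and was 0.67, 0.13, -1.14 and -0.35 in adult and 0.39, 0.24, 0.94 and 1.02 in old rats. Of the pups 18 were above all adults and 14 above all old rats. Newborn minus adult was 2.17 ± 0.43 (2.02 relative to the median probe; adjusted p = 6.9e-05) and newborn minus old 1.35 ± 0.43 (adjusted p = 0.00704). The 8 pups of the low-bulb fit read 0.49 to 2.01 and the other pups 1.63 to 3.53, so that both changes were smaller in the former. The call against old rats was lost without rat 9 of L1 (1.29, adjusted p = 0.0103) or any single old rat, with adjusted p of 0.0271 without rat 17, 0.0328 without rat 18, 0.0125 without rat 19 and 0.0111 without rat 20. It was also lost with scan day (adjusted p = 0.0351) or slide (adjusted p = 0.0144) as a block, the 75th percentile (adjusted p = 0.0117), normexp and quantile normalization (0.88, adjusted p = 0.0101) and no filter on dim probes (adjusted p = 0.0127). In the low-bulb fit it was 0.55 and not called (adjusted p = 0.144), and the pups of L4 with the least Kcnj12, rats 31 and 34, were those with the lowest bulb markers of that litter.

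Kcnj3, the partner of Kcnj5 in channels of the heart and brain, gave opposite answers from a pair of probes, and was chosen after its values were seen. The probe at chr8:70766491-70766550, plus strand of rn3, ran from 4.55 to 5.38 in the pups (median 4.95), and was 6.06, 5.85, 5.82 and 5.65 in adult and 5.27, 5.53, 5.36 and 5.25 in old rats. It was lower in all pups than in all adults, by -0.89 ± 0.10 (adjusted p = 2.63e-08), and lower than in old rats by -0.39 (adjusted p = 0.00146). The probe at chr8:70761072-70761131, on the same strand, ran from -0.99 to 1.41 in the pups (median 0.32), and was -1.44, -1.08, -2.09 and -1.72 in adult and -0.33, -0.53, -0.55 and -0.53 in old rats. It was higher in all pups than in all adults, by 1.84 ± 0.28 (adjusted p = 2.46e-06), at 0.75 newborn minus old (adjusted p = 0.0215). The sequences are shown, in lower case throughout, because the direction of Kcnj3 depends on which is read. Another Kcnj3 probe, outside the common set, lies on chromosome 3 in rn3, and which transcripts these probes bind was not checked.
Kcnj3 probe lower in newborn: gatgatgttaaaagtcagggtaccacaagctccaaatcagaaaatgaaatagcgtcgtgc
Kcnj3 probe higher in newborn: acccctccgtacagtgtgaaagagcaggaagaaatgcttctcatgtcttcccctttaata

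Of 9 tested probes for two-pore-domain channels 3 were higher and 2 lower in newborn than in adult rats, near the shares of all probes (39.7% and 26.7%), and 2 were higher and 4 lower than in old rats (28.4% and 31.5%). Kcnk6, a background channel, ran from 4.33 to 5.46 in the pups (median 4.64) with the probe that stands for the gene, and was 2.91, 3.61, 3.28 and 3.78 in adult and 3.47, 3.20, 3.54 and 3.45 in old rats. Every pup was above every older rat, by 1.26 ± 0.15 from adult (1.1 relative to the median probe; adjusted p = 3.35e-08) and 1.24 ± 0.15 from old rats (adjusted p = 6.3e-08). Its second probe was higher than in old rats by 0.88 (adjusted p = 2.38e-06), but newborn minus adult was 0.26 (adjusted p = 0.0747). The pair is printed, with no part in capitals, because the calls differ, from chr1:84437907-84437966 and chr1:84438834-84438893 on the minus strand of rn3. By eye the bases of the chosen probe resemble a repeat, and no genome was at hand to count its matches, so that its calls hold for Kcnk6 only if it binds that gene alone.
Kcnk6 chosen probe: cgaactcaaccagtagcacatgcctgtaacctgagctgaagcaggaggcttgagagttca
Kcnk6 second probe: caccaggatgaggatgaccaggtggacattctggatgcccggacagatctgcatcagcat

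Kcnk12, a relative of the halothane-inhibited channels, was highest in old rats. It ran from 4.71 to 5.54 in the pups (median 5.16), and was 5.12, 4.86, 5.04 and 4.95 in adult and 6.16, 6.33, 5.96 and 6.06 in old rats. All pups lay below the old rats, at -1.01 ± 0.12 (adjusted p = 4.25e-08), and overlapped the adults, at 0.12 (adjusted p = 0.341), which was 0.30 and called in the low-bulb fit (adjusted p = 0.00767). Kcnk1, a weak rectifier, followed the same order with -0.59 newborn minus old (adjusted p = 0.000176) and 0.12 newborn minus adult (adjusted p = 0.389), and 18 of the pups lay below all old rats. The former was lost in the low-bulb fit (-0.46, adjusted p = 0.0104). Its pups spanned 2.22 to 3.25, the adults read 2.46, 2.28, 2.59 and 2.48, and the old rats 3.1, 3.26, 3.07 and 3.21.

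The channels opened by stretch and fatty acids gave a mixed picture. Kcnk2 was 6.27 to 7.17 in the pups (median 6.61), 6.31, 6.20, 6.15 and 6.18 in adult and 6.38, 6.58, 6.57 and 6.59 in old rats. It was higher than in adults by 0.43 ± 0.08 (0.28 relative to the median probe; adjusted p = 5.69e-05), with 17 pups above all adults, and with quantile normalization this was 0.03 (adjusted p = 0.717). Kcnk4 was -1.95 to 0.85 in the pups (median -0.51), -1.42, -1.05, -1.55 and -1.18 in adult and -0.54, -0.81, -1.1 and -0.68 in old rats. It was higher than in adults by 0.85 ± 0.23 (adjusted p = 0.0018) in 15 pups above all adults, which was lost without adult rat 15 (0.76, adjusted p = 0.0117), with scan day as a block (adjusted p = 0.0114), with litter means as replicates (adjusted p = 0.0119) and in the low-bulb fit (0.69, adjusted p = 0.015). Kcnk10, named after its values were seen, was lower in all pups than in all older rats, at -0.86 (adjusted p = 4.18e-06) and -0.80 (adjusted p = 1.41e-05).

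Calcium-activated channels were read together with their accessory subunits. Kcnma1, the pore of the large-conductance BK channel, ran from 1.12 to 2.04 in the pups (median 1.62), and was 2.91, 2.76, 2.78 and 2.52 in adult and 2.76, 2.83, 2.68 and 2.97 in old rats. All pups were below all older rats, by -1.14 ± 0.12 from adult (-1.30 relative to the median probe; adjusted p = 8.72e-09) and -1.21 ± 0.12 from old rats (adjusted p = 4.98e-09). Kcnmb2, an accessory subunit that inactivates this channel, ran from 0.70 to 2.34 in the pups (median 1.26), and was 3.80, 3.48, 4.04 and 3.43 in adult and 3.05, 3.21, 2.97 and 3.22 in old rats. It was lower in every pup than in every older rat, by -2.35 ± 0.17 (-2.50 relative to the median probe; 5.1-fold; adjusted p = 1.26e-11) and -1.77 ± 0.17 (adjusted p = 3.15e-09). Kcnmb3, another of these subunits, was 3.65 to 5.62 in the pups (median 4.48), 5.08, 5.34, 5.22 and 5.01 in adult and 6.26, 6.34, 6.02 and 6.51 in old rats. All pups were below the old rats and 15 below all adults, at -1.79 ± 0.16 (adjusted p = 5.91e-10) and -0.67 ± 0.16 (adjusted p = 0.000632). Rats 22, 23 and 25 of L2, at 5.62, 5.54 and 5.39, lay above all adults. The difference from adults did not pass with litter means as replicates (adjusted p = 0.0117) or in the low-bulb fit (-0.55, adjusted p = 0.0171).

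Kcnmb4, the BK accessory subunit of neurons, went against the pore. It ran from 3.40 to 4.48 in the pups (median 3.75), and was 3.15, 2.95, 3.19 and 3.01 in adult and 2.66, 2.82, 2.65 and 2.87 in old rats. Every pup was above every older rat, by 0.74 ± 0.15 (0.59 relative to the median probe; adjusted p = 6.9e-05) and 1.07 ± 0.15 (adjusted p = 6.18e-07), the former 0.39 and short of the threshold with normexp correction and quantile normalization together (adjusted p = 0.0108). Kcnn4, the intermediate-conductance channel of blood cells and epithelia, was 2.27 to 4.04 in the pups (median 3.19), 1.74, 1.67, 2.41 and 1.89 in adult and 2.41, 2.23, 2.67 and 2.41 in old rats. It was higher by 1.23 ± 0.23 (adjusted p = 3.62e-05) and 0.73 ± 0.23 (adjusted p = 0.0069), with 17 and 16 pups above all adult and all old rats. Against old rats Kcnn4 no longer passed without old rat 17 (adjusted p = 0.0203), 18 (adjusted p = 0.0307) or 20 (adjusted p = 0.0201), nor with scan day (adjusted p = 0.017) or slide (adjusted p = 0.0126) as a block, the 75th percentile (adjusted p = 0.0123), quantile normalization (adjusted p = 0.0133) or no filter on dim probes (adjusted p = 0.0123). In the low-bulb fit the Kcnn4 change from old rats was about as large, at 0.72, but not called (adjusted p = 0.0429).

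Among the other accessory proteins, Kcne3, a partner of Kcnq1 in epithelia, was 2.42 to 4.81 in the pups (median 3.24), 0.94, 1.89, 2.21 and 2.73 in adult and 2.20, 2.17, 2.28 and 1.71 in old rats. It was higher than in adult by 1.32 ± 0.26 (1.16 relative to the median probe; adjusted p = 7.41e-05), with 16 pups above all adults, and higher than in old rats by 1.17 ± 0.26 (adjusted p = 0.000329), with no overlap. The methods' t-test lost the former (adjusted p = 0.0455), and within scan day 3 the latter was 0.59 (adjusted p = 0.0179). Kcnab3, a cytoplasmic subunit of Kcna channels, was 0.60 to 1.82 in the pups (median 1.04), 0.37, -0.04, -1.22 and 0.04 in adult and 0.32, -0.60, 0.24 and 1.09 in old rats. All pups were above the adults, at 1.34 ± 0.23 (adjusted p = 1.34e-05), and 8 above all old rats, at 0.87 ± 0.23 (adjusted p = 0.00188). The former was lost with the methods' t-test (adjusted p = 0.0404). The latter was lost without old rat 18 (0.58, adjusted p = 0.0332), with litter means as replicates (adjusted p = 0.0484), with rat (adjusted p = 0.0268), slide (adjusted p = 0.0387) or scan day (adjusted p = 0.0721) as a block with the methods' t-test (adjusted p = 0.11) and in the low-bulb fit (0.66, adjusted p = 0.0792), and was 0.83 within scan day 3 (adjusted p = 0.0364).

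Kcnab2, from the same family, had the pattern of Kcng2, with pups between adult and old rats. It was 0.91 to 1.84 in the pups (median 1.26), 1.33, 0.83, 1.21 and 0.76 in adult and 1.81, 2.03, 1.63 and 1.85 in old rats. Of the pups 8 lay above all adults and 15 below all old rats, at 0.31 (0.16 relative to the median probe; adjusted p = 0.00322) and -0.49 (adjusted p = 3.92e-05). The call against adults was lost without adult rat 14 (0.25, adjusted p = 0.0305) or adult rat 16 (0.22, adjusted p = 0.0416), with scan day (adjusted p = 0.0287) or slide (adjusted p = 0.0174) as a block, with the 75th percentile (0.18, adjusted p = 0.0687), with normexp correction and quantile normalization (0.04, adjusted p = 0.502), and with the methods' t-test (adjusted p = 0.12). In the low-bulb fit the change from adults was about as large, at 0.34, but not called (adjusted p = 0.0207). With litter means as replicates neither Kcnab2 call passed (adjusted p = 0.115 against adult and 0.023 against old rats).

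**Figure D2:**
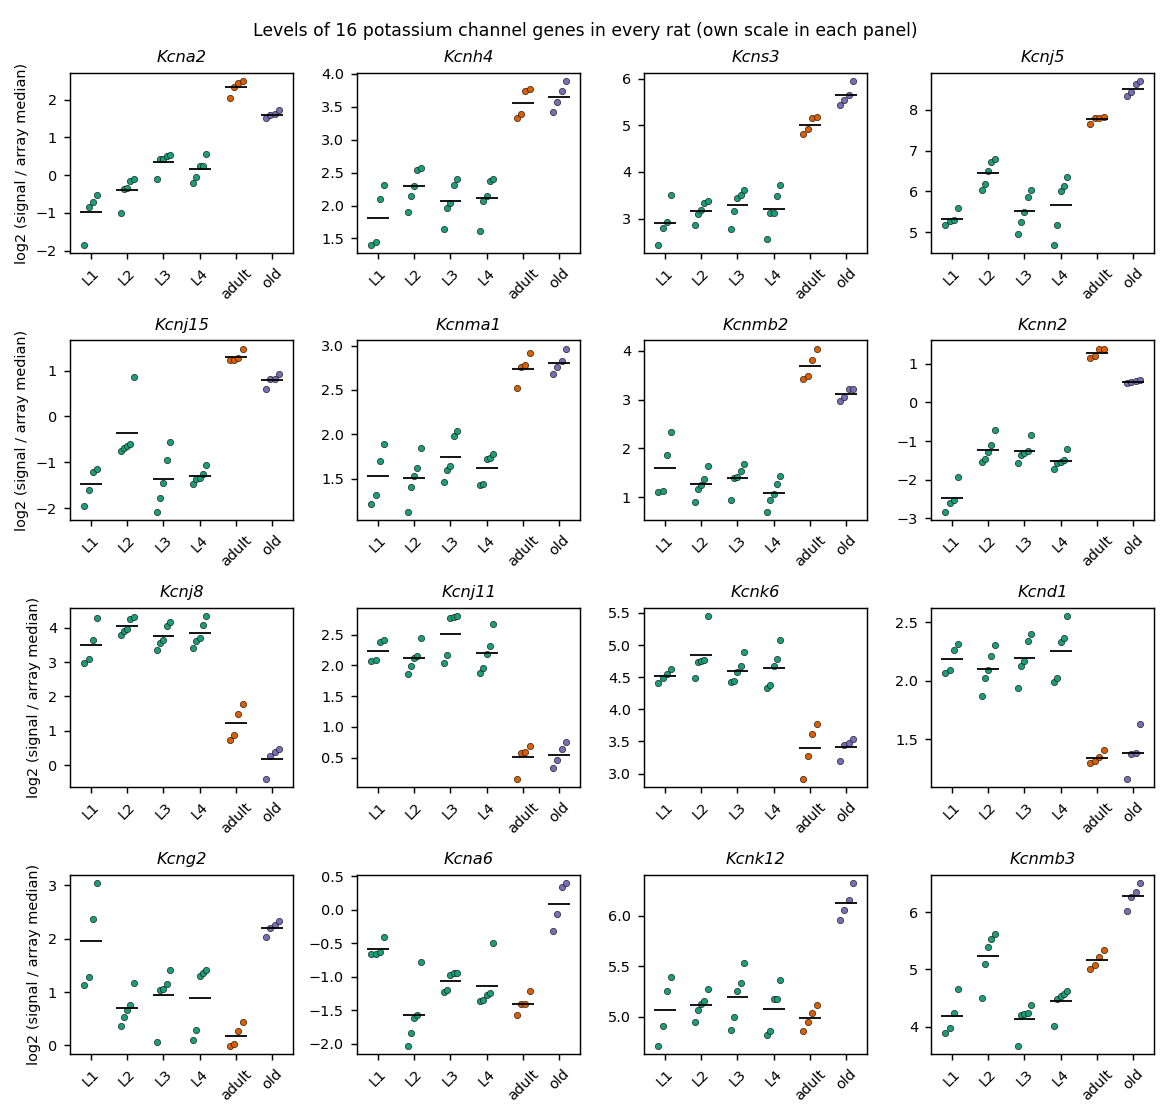
Level (log2 of signal over the array median, vertical axis) of 16 Kcn genes in every rat of the 4 litters and the adult and old groups; each point is 1 rat and each black line a group mean. In Kcna2, Kcns3 and Kcnj5 all pups lie below all adult and old rats, and in Kcnj8 and Kcnj11 all lie above them.

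Probes of 5 genes in which all pups lay apart from all older rats are printed as examples, so that they can be placed on current transcripts, in lower case with no part marked. On rn3 they lie at chr2:202526702-202526761 on the plus strand for Kcna2, and on the minus strand at chr6:34537820-34537879 for Kcns3, chr8:32089581-32089640 for Kcnj5, chr4:180389208-180389267 for Kcnj8 and chr1:96693862-96693921 for Kcnj11.
Kcna2: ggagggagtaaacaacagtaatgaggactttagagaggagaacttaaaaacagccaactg
Kcns3: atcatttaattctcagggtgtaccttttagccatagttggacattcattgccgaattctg
Kcnj5: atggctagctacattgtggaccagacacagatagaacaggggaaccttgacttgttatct
Kcnj8: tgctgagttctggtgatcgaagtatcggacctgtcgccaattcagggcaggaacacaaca
Kcnj11: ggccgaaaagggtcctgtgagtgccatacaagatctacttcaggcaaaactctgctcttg

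Called higher in newborn than in adult and than in old rats, comparisons that share the newborn rats, were Kcnab3, Kcnd1, Kcne3, Kcnj8, Kcnj11, Kcnj12, Kcnk6, Kcnmb4, Kcnn4 and Kcnq5. Among those called lower than in each were Kcna2, Kcna5, Kcnh3, Kcnh4, Kcnj1, Kcnj3 with 1 of its probes, Kcnj5, Kcnj13, Kcnj15, Kcnk9, Kcnk10, Kcnma1, Kcnmb2, Kcnmb3, Kcnq1 and Kcns3. Probes that passed in none of the 3 comparisons were, among others, those for Kcne2, Kcng1, Kcnh6, Kcnip2, Kcnip4, Kcnj14, Kcnk13, Kcnn3 and Kcnrg. For Kcnip4 the 8 pups of the low-bulb fit read -1.94 to 0.63 and the other pups 0.87 to 2.16. Adults read 0.84 to 1.46 and old rats 1.32 to 1.63.

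Between adult and old rats fewer Kcn probes were called, mostly with more signal in old rats. This comparison had fewer rats than those of the pups, so that its counts cannot be set against theirs. Of the 55 probes 4 were higher in adult and 12 lower, where 15.9% and 31.4% of all probes were called, and with a fold of at least 2 these were 1 and 7, against 4.66% and 7.49%. By role the lower probes were 4 voltage-gated, 4 silent, 2 two-pore-domain and 2 accessory. With only the adult and old rats in the fit 7 Kcn probes were higher and 21 lower, against 3814 and 7840 of all 23668 probes. With scan day as a random block limma called 0 higher in adult rats (6 at an unadjusted p under 0.05), where the methods' t-test called 3. Direction held in every scaling except for 1 of the lower probes, which changed sign with quantile normalization.

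The silent subunit Kcng2 had the largest difference, at -2.02 ± 0.35 adult minus old (-1.84 relative to the median probe; 4.05-fold; adjusted p = 2.84e-05), and its other tested probes gave -1.90 (adjusted p = 2.07e-07) and -1.71 (adjusted p = 0.000922). Kcna6, an axonal delayed rectifier, was -2.04 to -0.40 in the pups (median -1.19), -1.41, -1.22, -1.40 and -1.57 in adult and 0.34, 0.40, -0.06 and -0.32 in old rats. The old rats stood above all the others. Adult minus old was -1.49 ± 0.21 (-1.31 relative to the median probe; 2.81-fold; adjusted p = 1.8e-06) and newborn minus old -1.18 (adjusted p = 7.83e-07). Kcnk12 differed by -1.14 (-0.95 relative to the median probe; adjusted p = 7.04e-07), and Kcnmb3 by -1.12 (-0.94; adjusted p = 5.43e-05). Kcnab2 differed by -0.80 (-0.62; adjusted p = 2.61e-06; not called by the methods' t-test, adjusted p = 0.013) and Kcnk1 by -0.71 (-0.53; adjusted p = 0.000512).

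Smaller differences were called in some settings and not in others. Kcns1 was -0.76 ± 0.24 adult minus old (-0.58 relative to the median probe; adjusted p = 0.00955), and leaving out any adult or old rat but old rat 19 lost it, with adjusted p of 0.0228, 0.0292, 0.0104 and 0.0174 without adult rats 13 to 16 in that order, and 0.017, 0.0258 and 0.0336 without old rats 17, 18 and 20. It was also lost with scan day as a block (adjusted p = 0.0207), the 75th percentile (adjusted p = 0.014), no filter on dim probes (adjusted p = 0.0169) and the methods' t-test (adjusted p = 0.0102). Kcnq1 was -0.69 ± 0.19 (-0.50 relative to the median probe; adjusted p = 0.00398), lost without adult rat 14 (adjusted p = 0.0137) or old rat 20 (adjusted p = 0.0156), with scan day as a block (adjusted p = 0.0126), and with normexp and quantile normalization (-0.30, adjusted p = 0.0392). Adult minus old of 9 other named genes was not called with all 6 groups but was with only adult and old rats in the fit. These were Kcnj16 (-0.86), Kcnj5 (-0.75), Kcnh1 (-0.74), Kcns3 (-0.63), Kcnj13 (-0.37), Kcnk2 (-0.32), Kcnmb2 (0.58), Kcnq5 (0.56) and Kcnj15 (0.51).

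The 4 probes higher in adult than in old rats were those of Kcnj8, Kcna2, Kcnj3 and the second Kcnk6 probe. Kcnj8 was higher by 1.04 ± 0.27 (1.22 relative to the median probe; adjusted p = 0.00232), lost without adult rat 16 (0.85, adjusted p = 0.0141) or old rat 18 (0.84, adjusted p = 0.015), with scan day (adjusted p = 0.0388) or slide (adjusted p = 0.0123) as a block, with normexp and quantile normalization (0.67, adjusted p = 0.0148), and with the methods' t-test (adjusted p = 0.0358). Kcna2 was higher by 0.72 ± 0.23 (0.90 relative to the median probe; adjusted p = 0.00836), which was kept without adult rat 14 and lost without any other adult or old rat, with adjusted p of 0.0251, 0.0223 and 0.0176 without adult rats 13, 15 and 16 and 0.0169, 0.0128, 0.0182 and 0.0222 without old rats 17 to 20. It was also lost with scan day as a block (adjusted p = 0.0335), litter means as replicates (adjusted p = 0.0162) and no filter on dim probes (adjusted p = 0.0149). Kcnj3 was higher by 0.49 with its lower-in-newborn probe (adjusted p = 0.0022), and Kcnk6 by 0.62 with its second probe (adjusted p = 0.00304). The count of 4 was 1 without adult rat 16 or old rat 18, and 2 without adult rat 13.

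Kcn levels also differed among litters of one age. The limma test over the 4 litters called 14 of the 55 probes, against 37.9% of all probes. L1 was scanned with the old rats and on another day than the other litters, and among L2, L3 and L4 alone 6 Kcn probes passed, or 3 with their scan days as a block, where 2541 and 2591 of all 23668 probes passed. Kcnq5 had litter means of 3.51, 4.99, 3.94 and 3.81 in L1 to L4 (adjusted p = 1.53e-06), with all 5 pups of L2 above all other pups. Kcna2 had means of -0.98, -0.39, 0.36 and 0.16 (adjusted p = 5.8e-05), Kcnmb3 4.18, 5.23, 4.14 and 4.44 (adjusted p = 9.03e-05), and Kcnj1 -0.13, 1.32, 0.54 and 0.72 (adjusted p = 0.000155). In Kcnj5, with means of 5.34, 6.44, 5.52 and 5.67 (adjusted p = 0.00296), L2 was again the highest litter, though below every adult.

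Some Kcn genes varied widely between pups of a litter, beside markers of the olfactory bulb, the brain region that lies behind the epithelium. Of 9 markers of bulb neurons 6 were matched (Tbr1, Eomes and Neurod6 were not), with a summed level of 5.82 to 108 in the pups (median 47.6), 14.4 to 23.5 in adult and 12.1 to 24.9 in old rats. Reln was the brightest of the 6 and weighed most in this sum. Of these, 2 were tested and limma called 0 of them between any ages, with 1, 1 and 0 at an unadjusted p under 0.05 in the 3 comparisons, and the methods' t-test called 0. The Kcn genes of this pattern were chosen after their values were seen.

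Kcnv1, a silent subunit of brain neurons, was above background on arrays of 14 pups, 2 adult arrays and 1 old array. In L4 it was -1.36, 3.12, 2.57, -2.64 and 1.48 in rats 31 to 35, whose bulb marker sums were 11.6, 108, 87.2, 8.42 and 48.0. The pups with little bulb signal, 31 and 34, were those with little Kcnv1. In L3 it was 1.33, -3.98, 1.62, 0.95 and 2.56 in rats 26 to 30, with bulb sums of 70.9, 9.39, 71.5, 46.7 and 102. In L2, rat 21 stood apart with 1.68 beside a bulb sum of 54.4, while rats 22 to 25 had Kcnv1 of -2.28, -5.73, -3.52 and -0.69 and bulb sums of 9.04, 5.82, 7.33 and 16.9. The L1 pups had Kcnv1 of 2.31, 0.80, 1.29 and 0.75 and bulb sums of 80.7, 47.6, 94.1 and 23.1.

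Kcnk13, a two-pore-domain channel in the common set, followed the same order in L4, at 2.17, 4.77, 3.99, 2.13 and 3.35 in rats 31 to 35. Kcnip4, a calcium-binding partner of Kcnd channels, was -0.74, 1.96, 1.87, -1.1 and 0.89 in these pups, and Kcnj12 was 0.97, 3.53, 2.68, 0.49 and 2.10. Kcnd2, the A-type pore subunit of brain neurons, was above background on arrays of 13 pups and was -2.68, 1.07, 0.19, -3.95 and -0.45 in L4. The part of bulb tissue in these values was not tested. In 8 of the 19 pups the bulb marker sum was no higher than in the highest adult or old rat. They were 1 pup of L1, 4 of L2, 1 of L3 and 2 of L4. As litters were weighted equally, rats 12 and 27 each stood for a whole litter. The fit with those 8 pups alone called 15 Kcn probes higher and 17 lower than in adult rats and 8 higher and 29 lower than in old rats, where 9140, 5419, 6275 and 5983 of all 23660 probes were called. The calls between newborn and older rats that this low-bulb fit changed in single named genes are given with those genes. Kcnj8 and the chosen Kcnk6 probe still passed against both older groups.

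**Figure D3:**
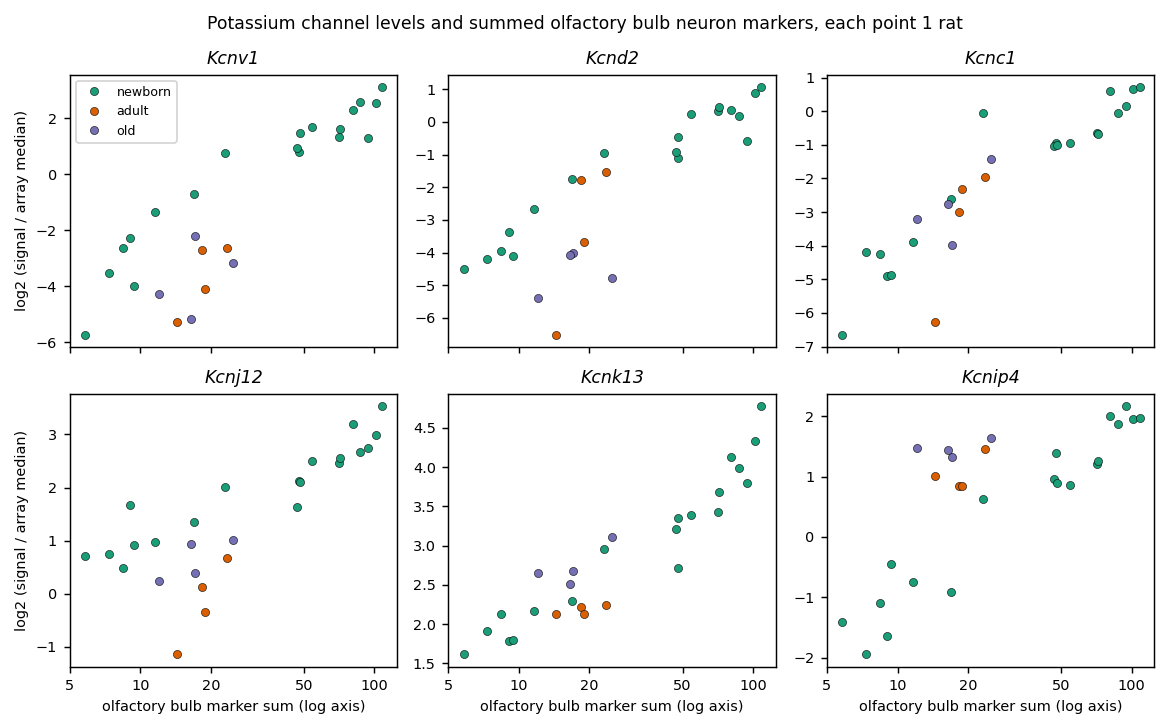
Level (log2 of signal over the array median, vertical axis) of 6 Kcn genes against the summed level of 6 olfactory bulb markers (multiples of the array median, log axis), with 1 point for each pup, adult and old rat. Rat 23 of L2 has both the lowest bulb sum, 5.82, and the lowest Kcnv1, -5.73.

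Outside the common set, 51 Kcn probes were tested in the fit on all probes. Newborn rats differed from adult or old rats, in either direction, in 16 of them, against 34.5% of all probes outside the common set. Kcnn2, a small-conductance calcium-activated channel chosen after its values were seen, missed the common set because 1 of the 4 L1 arrays measured it. It was above background on arrays of 15 pups and on all 8 adult and 8 old arrays. Its level ran from -2.84 to -0.71 in the pups (median -1.49), and was 1.38, 1.15, 1.39 and 1.19 in adult and 0.52, 0.50, 0.54 and 0.59 in old rats. No 2 of the groups overlapped. The newborn mean includes 4 arrays, 3 of them of L1, on which the probe was not above background, so that the folds are approximate. Newborn minus adult was -2.90 ± 0.14 (7.45-fold; adjusted p = 3.85e-14) and newborn minus old -2.16 ± 0.14 (4.45-fold; adjusted p = 9.82e-12). The probe spans chr18:39734132-39740169 on the plus strand of rn3, more than its 60 bases, and is shown for that reason, with no part marked.
Kcnn2: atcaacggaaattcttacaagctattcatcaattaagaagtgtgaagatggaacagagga

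For probes that no array of a group measured well above background, a fold is a bound only. It sets the mean of the brighter group against, on each array of the dimmer group, the lowest signal well above background or the signal of the probe where that was higher. Kcnd2, on the list of genes fixed whatever their values, was at least 1.84-fold higher in newborn than in old rats (adjusted p = 0.00608), being above background on arrays of 13 pups and on 2 adult and 0 old arrays. Of the 8 pups of the low-bulb fit, rats 22 to 25 read -3.37, -4.50, -4.21 and -1.76. Rats 12, 27, 31 and 34 read -0.96, -4.12, -2.68 and -3.95. The old rats read -4.01, -5.39, -4.06 and -4.79, and the other pups -1.10 to 1.07. The part of bulb tissue in this call was not tested. Kcnh8, a relative of Kcnh3 and Kcnh4 measured on 2 arrays of pups, 6 adult and 0 old arrays, was at least 1.01-fold higher in adult than in old rats. A second Kcnma1 probe, measured on 5, 7 and 0 arrays, was at least 1.53-fold higher in adult than in old rats. Neither of the last 2 probes was called between adult and old rats, and as they were picked because no old array had them above background, no p is given for them.

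Several channels well known in other neurons gave little or no signal in adult and old rats. Kcnq3, a subunit of the M-type current, was above background on 3 arrays of pups and on 0 adult and 0 old arrays. Kcna3, known from lymphocytes and the olfactory bulb, was above background with the probe that stands for it on 1 array of a pup and 0 adult and 0 old arrays. Kcnc1, a fast delayed rectifier, was measured on arrays of 12 pups and on 2 adult and 2 old arrays, and ran from -6.64, the floor, to 0.72 in the pups. Of the 8 pups of the low-bulb fit, rats 22 to 25 read -4.90, -6.64, -4.19 and -2.62. Rats 12, 27, 31 and 34 read -0.06, -4.87, -3.88 and -4.24, and the other pups -1.04 to 0.72. The part of bulb tissue in these values was not tested either.

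Other genes of ion transport that are not named Kcn were read beside the channels. Of 38 partners and other channels 36 were matched (Ano2 and Lrrc52 were not) and 27 tested. Of these, 3 were higher and 14 lower in newborn than in adult rats, and 2 were higher and 18 lower than in old rats. Between the older groups 1 was called higher in adults and 8 lower, where 15.9% and 31.4% of all probes were called. These counts were not tested against those shares. The summed level of the partners and other channels was 2107 to 3661 in the pups, 3982 to 4589 in adult and 5335 to 6376 in old rats. Amigo1, a membrane protein that binds channels, had means of -0.27, 0.11 and 0.96 in newborn, adult and old rats, and was lower in newborn than in adult (adjusted p = 0.00706) and old rats (adjusted p = 4.17e-09). The sodium channel Scn9a, with means of 4.91, 6.31 and 5.66, was lower in newborn than in adult rats by -1.40 (adjusted p = 1.08e-07), and Pex5l, a partner of Hcn channels, by -0.78 (adjusted p = 0.000106).

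Markers of the remaining cell types were read in the same way beside the Kcn genes. Of 9 basal progenitor markers 8 were tested, with 5 higher in newborn than in adult and 5 than in old rats and sums of 307 to 2181.7 in the pups (median 457), 279 to 325 in adult and 557 to 679 in old rats. Of 9 sustentacular markers 8 were matched and 6 tested, with 1 higher and 3 lower than in adult and 6 lower than in old rats, and sums of 2338 to 5401, 3954 to 4506 and 7308 to 8283. Of 9 markers of nerve glia 8 were tested, with 5 higher and 1 lower than in adult and 1 higher and 1 lower than in old rats, sums of 121 to 926, 198 to 340 and 267 to 388, and S100b on no array. Of 7 bone and cartilage markers 5 were tested, with 1 higher than in adult and 3 higher and 1 lower than in old rats, and sums of 769 to 2426, 747 to 1351 and 288 to 503. Of 8 immune markers 7 were matched and 5 tested, with 2 higher and 1 lower than in adult and 1 higher and 1 lower than in old rats, and sums of 129 to 363, 201 to 715 and 531 to 810. Of 7 markers of ciliated cells 6 were tested and limma called 0 in any comparison, with 3, 1 and 4 at an unadjusted p under 0.05, while the methods' t-test called 0, 1 and 0. Their sums were 412 to 1073, 438 to 630 and 738 to 813. The brightest markers of these lists were, in the order given, Krt14, Krt18, Fabp7, Bglap, Cd74 and Foxj1. The part of these cell types in the Kcn results was not tested.

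The promoters of the Kcn genes were searched for 3 C, any 2 bases and 3 G, the palindromic core of the element bound by Olf-1/EBF factors in olfactory neurons, which reads the same on both strands. RefSeq promoters of assembly GRCr8, of 300 bases, were found for 56 Kcn genes (62 promoters). The letters occurred in 17 of the 62 (27.4%), and in 4160 of 33469 promoters of all genes (12.4%). They were in 5 of 14 promoters of Kcn genes lower in newborn than in adult rats, in 2 of 10 of those higher and in 3 of 10 of those not called. Against old rats these were 5 of 20, 1 of 5 and 4 of 9, and no test was made of either split. A match is a description of letters and not a binding site. The promoters of Kcna2 (chr2:197393280-197393579, plus strand), Kcnh4 (chr10:86188427-86188726, minus strand), Kcnma1 (chr15:351675-351974, plus strand) and Kcnmb3 (chr2:117198470-117198769, minus strand) are printed as those with a match among the genes lower in newborn than in both older groups. The promoters of Kcna5, Kcnj1, Kcnj5, Kcnj13, Kcnj15, Kcnmb2 and Kcns3, also lower than in both, held no match. Capitals mark the matches, and in Kcnma1, with 5, a pair of them overlap.
Kcna2: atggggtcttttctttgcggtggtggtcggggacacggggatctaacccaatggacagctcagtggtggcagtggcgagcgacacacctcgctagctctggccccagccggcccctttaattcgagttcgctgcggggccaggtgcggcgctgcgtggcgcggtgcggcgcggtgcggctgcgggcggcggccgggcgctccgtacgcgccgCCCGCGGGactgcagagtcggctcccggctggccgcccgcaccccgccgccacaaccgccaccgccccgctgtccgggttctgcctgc
Kcnh4: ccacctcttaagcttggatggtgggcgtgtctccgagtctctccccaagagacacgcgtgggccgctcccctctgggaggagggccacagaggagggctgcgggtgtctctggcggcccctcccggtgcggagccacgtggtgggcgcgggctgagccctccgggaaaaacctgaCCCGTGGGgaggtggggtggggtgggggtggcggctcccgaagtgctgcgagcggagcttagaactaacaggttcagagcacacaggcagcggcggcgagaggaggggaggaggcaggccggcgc
Kcnma1: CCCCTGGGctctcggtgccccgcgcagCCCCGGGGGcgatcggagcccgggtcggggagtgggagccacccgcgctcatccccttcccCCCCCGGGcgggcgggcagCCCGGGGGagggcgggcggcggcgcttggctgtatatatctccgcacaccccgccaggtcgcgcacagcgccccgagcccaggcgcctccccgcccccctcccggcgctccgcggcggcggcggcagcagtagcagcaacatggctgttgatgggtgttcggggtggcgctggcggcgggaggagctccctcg
Kcnmb3: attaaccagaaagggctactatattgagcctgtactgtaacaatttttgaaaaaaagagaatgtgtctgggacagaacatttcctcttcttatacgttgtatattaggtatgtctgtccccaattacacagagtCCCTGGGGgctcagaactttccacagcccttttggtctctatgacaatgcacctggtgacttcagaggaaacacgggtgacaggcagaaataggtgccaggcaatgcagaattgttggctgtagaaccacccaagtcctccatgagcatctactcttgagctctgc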

How the data were processed

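The authors deposited scanner output whose spot intensities had local background removed and were left without scaling across arrays; per the file headers it came from Agilent Feature Extraction 9.5.1.1 for the adult arrays and 9.5.3.1 for the others. The ratio values in the matrix of the authors were log2-transformed here as an alternative; its column medians ran from 0.723 to 0.978 (median 0.875), and it differed from the scanner values by 1 constant per probe on 97.15% of 41012 lines (SD limit 0.01); the authors describe dividing each gene by its median over the arrays. No column lacked a sample.

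Spots of a probe were averaged after 4189 outlier spots on 732 probes were left out, none of them Kcn; 917 spots were not uniform. Signals over the array median were raised to at least 0.01 and taken to log2. A probe counts as above background when at least 0.5 of its spots carry the scanner's positive-and-significant and well-above-background marks and neither the non-uniform nor the saturated mark. Each Kcn probe had 1 spot and 60 bases, and 85 of 106 matched a RefSeq accession, all 85 with the same symbol.

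Rats were compared with limma 3.58.1 (R 4.3.3) on 6 groups, with litters weighted equally in the newborn mean, on the 23668 probes expressed in common, with Benjamini-Hochberg adjustment over all of them. Probes outside that set were tested in a fit on all 41012. Tables were made with Python 3.11.15, pandas 2.3.3 and numpy 2.4.6, and the code was tested on simulated data. Named genes are the 10 largest changes per direction among those called with a fold of at least 1.5, a fixed list, and probes expressed at some ages and on no array of another; 1 probe stands for a gene. Kcnip3 was on the fixed list but has no Kcn name on the array. The members and the 12 marker lists were chosen with earlier results of these data known.

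Alternatives were other scalings, background correction, the authors' matrix, outlier spots kept, litter means, rat, slide or scan day as a random block (correlations 0.586, 0.276 and 0.290), the methods' t-test, other filters, only the groups compared, L1 alone against old rats, each rat left out, and, added after seeing the data, only pups with low bulb markers and, for the litters, L2 to L4 with scan day as a block. Some genes counted in the totals are not reported here.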

Additional observations from a re-analysis of the deposited data

Results flagged for a closer look

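In 14 of 198 groups of a gene, 1 rat stood apart from the others of its group; by chance this is reached in about 1 in 20 groups. The range in parentheses is that of the other rats of the group.
Kcna1 in rat 27 of L3 was 0.80 (others 1.74 to 2.11), and Kcng2 in the same pup was 0.0568 (1.05 to 1.42).
In rat 30 of L3, Kcna2 was -0.0924 (0.42 to 0.52), Kcnmb3 3.65 (4.21 to 4.38) and Kcns1 -0.0850 (0.61 to 0.73).
Kcna6 was -0.40 in rat 11 of L1 (-0.66 to -0.63) and -0.49 in rat 34 of L4 (-1.36 to -1.23).
Kcnmb3 in rat 32 of L4 was 4.02 (4.48 to 4.61), and Kcnj15 in rat 24 of L2 was 0.86 (-0.75 to -0.60).
Among adults, Kcnj15 in rat 15 was 1.48 (1.22 to 1.27) and Kcnq5 in rat 16 was 3.62 (3.44 to 3.46).
Among old rats, Kcnh1 in rat 20 was 4.74 (4.80 to 4.82), Kcnj13 in rat 17 was 4.27 (4.41 to 4.42) and Kcnk2 in rat 17 was 6.38 (6.57 to 6.59).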

How the results depend on the processing

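Of 99 results of named genes, 62 kept their call in every alternative and 37 changed it in at least 1. Among all Kcn probes, 1 of the probes called lower in adult than in old rats changed sign with quantile normalization.
Kcn probes higher in adult than in old rats numbered 4, but 0 with scan day as a random block (limma; 6 at an unadjusted p under 0.05; the methods' t-test called 3) and 7 with only the groups compared. Leaving out 1 rat gave 1 to 5: 1 without adult rat 16 or old rat 18, 2 without adult rat 13, and 5 without rat 24 of L2.
Kcn probes lower in adult than in old rats numbered 12, but 21 with only the groups compared and 19 with only the pups whose bulb markers were no higher than in adult and old rats; leaving out 1 rat gave 10 to 15.
Probes that differ among the 4 litters numbered 14, but 9 among probes above background on all arrays, 6 with only L2, L3 and L4, and 3 with their scan day as a block; leaving out 1 rat gave 12 to 17.
Newborn against adult rats gave 18 higher and 18 lower, and 14 and 21 with the 75th percentile; leaving out 1 rat gave 15 to 18 and 16 to 19. Newborn against old rats gave 11 higher and 29 lower, 16 and 34 without a filter on dim probes, 26 lower with litter means as replicates, and 8 to 12 and 27 to 30 leaving out 1 rat. The common set held 55 Kcn probes, 65 with positive and significant alone, 47 with every array of a group, and 53 to 55 leaving out 1 rat.
No paired analysis was possible because no rat was measured at more than 1 age.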

Other observations

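Csen, the array's name for Kcnip3, is not a Kcn name and lay outside the rule: mean levels were 0.83, -0.33 and -0.37 in newborn, adult and old rats, 1.16 newborn minus adult (adjusted p = 0.00135) and 1.21 newborn minus old (adjusted p = 0.00106). Kchip2 (Kcnip2) and Tresk-2 (Kcnk18) were above background on no array.

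The comparisons of adult rats share age with scan day and software release, and those of pups share age with litter, unknown sex and a single sampled side. With 4 adult and 4 old rats, a single rat decided several of the smaller calls. Levels are of tissue, so that cell numbers and RNA per cell were not separated, and no protein or current was measured here.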
